A study of Homo sapiens with 18 samples.

Results

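The ETS and ternary complex factor genes ELK1, ELK3, ELK4, GABPA, ETS1, ETS2, ETV4, ETV5 and ERF were taken by their symbols from the 56269 genes of the table; the symbols were named with earlier results of these data known. All 9 were present, and all 9 had a mean of at least 10 normalized counts over the 18 libraries, as did 13686 of the genes in all. RNA was sequenced from IMR90 cells, a line of primary human lung fibroblasts, in 6 groups of 3 biological replicates. Before collection the cells had received PBS or hyaluronan (HA) from skin fibroblasts of the naked mole-rat for 6 h. The HA was given at 20 μg/ml, either as cNSF-HA, which went through the digestion steps with inactivated hyaluronidase and stayed intact, or as fNSF-HA, which hyaluronidase had partially fragmented. The PBS, cNSF-HA and fNSF-HA groups were collected after this pre-incubation. The PBS+tBHP, cNSF-HA+tBHP and fNSF-HA+tBHP groups were then exposed to 200 μM tBHP (tert-butyl hydroperoxide, an oxidant) for 1 h in place of the HA and collected 6 h after its start. The contrast of cNSF-HA with fNSF-HA asks whether HA polymer length changes expression, and the contrast of each tBHP group with its own pre-incubation gives what is called the tBHP response here. No group was collected at the later time without tBHP, so in this response the oxidant, the later collection and the end of the pre-incubation cannot be told apart.

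ETS proteins are transcription factors that share a DNA-binding domain, the ETS domain, which recognizes a GGAA core. ELK1, ELK3 and ELK4 are the ternary complex factors. They sit beside the serum response factor SRF on serum response elements, and ERK phosphorylation of their activation domain turns on immediate early genes. ETS1 and ETS2 are also ERK substrates with targets among matrix proteases, ETV4 and ETV5 belong to the PEA3 group, whose expression follows growth factor and ERK signaling, and ERF is a repressor that ERK phosphorylation expels from the nucleus. GABPA binds DNA as part of a complex with GABPB and acts on genes of mitochondrial respiration. The activity of most of these factors is set by phosphorylation, so transcript levels do not measure it.

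In GRCh38, GENCODE release 29 places ELK1 on the minus strand at chrX:47635521-47650604, ELK4 on the minus strand at chr1:205597556-205631962 and GABPA on the plus strand at chr21:25734570-25772460. ETS2 lies on the plus strand at chr21:38805307-38824955 and ELK3 on the plus strand at chr12:96194382-96269835. On the minus strand lie ETS1 at chr11:128458761-128587558, ETV4 at chr17:43527844-43579620, ETV5 at chr3:186046308-186110318 and ERF at chr19:42247572-42255157. RefSeq promoter windows (250 bases before to 50 after a start, GRCh38.p14) were matched for 6 of the 9 genes, ELK1, ELK3, ELK4, GABPA, ETS2 and ERF, and were searched for motifs on both strands. These genes have 10 windows, 3 for ERF, 2 each for ELK3 and ETS2 and 1 each for the others. The high-affinity ETS motif CCGGAAG was found in 2 of the 10 windows, those of ELK4 and GABPA, and in 10.26% of all 35116 windows. Sequences are shown for ELK4 and GABPA since they hold the motif of their own family and, as described below, had the lowest levels per length and the lowest responses to tBHP in cNSF-HA cells. The ELK1 promoter is shown since it holds 4 CCAAT boxes, a motif found in 34.61% of all windows and in none of the other windows of these 6 genes. Each is written 5′ to 3′ on the strand of the gene, with the motif in capitals in either orientation. Neither stretch of 250 bases overlaps a GENCODE exon, and the 30 bases of GABPA lie in the first exon of a longer GABPA transcript and in an exon of ATP5PF, a subunit gene of ATP synthase on the opposite strand.
ELK4, chr1:205632012-205632261, the 250 bases before the start: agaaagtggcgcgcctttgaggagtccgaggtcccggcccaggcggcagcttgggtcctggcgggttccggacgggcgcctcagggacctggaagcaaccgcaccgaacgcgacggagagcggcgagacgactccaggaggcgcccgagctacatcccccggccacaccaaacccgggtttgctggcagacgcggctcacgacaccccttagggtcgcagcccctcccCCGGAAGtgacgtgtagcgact
GABPA, chr21:25734894-25734923, 30 bases around the motif: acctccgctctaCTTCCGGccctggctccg
ELK1, chrX:47650605-47650854, the 250 bases before the start: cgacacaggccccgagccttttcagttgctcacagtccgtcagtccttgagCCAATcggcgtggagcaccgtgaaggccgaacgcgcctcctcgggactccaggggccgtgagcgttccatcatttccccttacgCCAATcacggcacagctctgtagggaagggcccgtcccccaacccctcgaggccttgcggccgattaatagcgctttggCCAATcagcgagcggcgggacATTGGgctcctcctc

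The ETS motif began at position -22 of ELK4 and -66 of GABPA, counted from the RefSeq start. Under these letters, 0 of the 10 windows had the AP-1 motif TGANTCA (7.709% of all windows), the cyclic AMP response element TGACGTCA (1.848%) or a CArG box (1.293%), the site of SRF. The motif CCTGCG, described for the intracellular domain of the HA receptor CD44, was found in 5 of the 10 windows, of 4 genes, and in 23.5% of all windows. The GGAA core alone was in all 10 windows and in 95.45% of all windows. These matches describe the letters of the windows.

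The libraries held 20261103 to 26287660 reads on genes. All 9 fibroblast markers (such as COL1A1 and VIM) passed 10 normalized counts, and 1 of 6 epithelial, 2 of 4 endothelial, 0 of 5 blood and 2 of 3 smooth muscle markers did. Their summed values without tBHP were 1576 to 1792 for the epithelial list, of which KRT18 was the gene that passed, 1284 to 1459 for the endothelial, 6876 to 7729 for the smooth muscle and 3.82 to 11.7 for the blood list. After tBHP these ranges were 925 to 1581, 712 to 1101, 4429 to 6457 and 4.38 to 15.2, so the endothelial and smooth muscle sums were lower after tBHP without overlap, and their part in the responses below was not tested. The endothelial sum was mostly TEK (a mean of 1131) and the smooth muscle sum ACTA2 (6363), while PECAM1 had a mean of 0.063, CDH5 was at 0 in all libraries and MYH11 had a mean of 2.3. The other gene that passed in each list went the other way in PBS cells, where TEK and ACTA2 fell after tBHP. These were VWF (a mean of 13.0) and DES (20.2), which rose there. Among the other ETS genes, SPI1, a blood lineage factor, reached at most 2.03 normalized counts in any library, and ERG, an endothelial factor, at most 2.19. FLI1, known from blood and endothelium, lay between 369 and 467 in all libraries.

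Without tBHP, replicates lay close together, with a median SD of 0.076 on the log2 scale over all genes tested, and after tBHP it was 0.21. Replicate 2 of fNSF-HA+tBHP stood apart. Its counts differed from those of replicates 1 and 3 by 32.2 and 71.2 times the sampling noise, against 13.5 between those 2. The deviations of replicate 2 from the average of all 9 tBHP libraries ran against the GC content of the transcripts (r = -0.81 over 12503 genes, a description across genes of 1 library, which are not independent). The 9 genes differ widely in GC content: it was 36.4% in GABPA, 38.5% in ELK4, 42.6% in ETS1, 42.7% in ELK3, 48.6% in ETV5, 48.7% in ETS2, 57.0% in ELK1, 60.8% in ETV4 and 64.0% in ERF. In that library r was -0.98 over the 9 genes, from a deviation of 0.65 for ELK4 to -0.89 for ERF. Replicate 1 of fNSF-HA+tBHP also ran against GC content (r = -0.50 over all genes and -0.73 over the 9). Replicate 3 ran with it (0.37 and 0.85). In replicate 3 of cNSF-HA+tBHP r was 0.84 (0.46 over all genes), ELK4 deviated by -0.69, and the counts differed from those of replicates 1 and 2 by 35.7 and 28.2 times the sampling noise, against 2.86 between those 2. Replicates 1 and 2 of cNSF-HA+tBHP ran with GC content as well (r = 0.90 and 0.78 over the 9 genes, 0.32 each over all genes). Over the 9 genes r was also far from 0 in libraries without tBHP, such as -0.96 in fNSF-HA replicate 2. Replicate 1 of PBS+tBHP ran with GC content too (r = 0.96 over the 9 genes and 0.64 over all genes), from -0.34 for GABPA to 0.32 for ERF, and its counts differed from those of replicates 2 and 3 by 18.5 and 15.6 times the sampling noise, against 4.22 between those 2. The responses in fNSF-HA cells are therefore given with and without replicate 2 of fNSF-HA+tBHP, and the counts in PBS and cNSF-HA cells with and without replicate 1 of PBS+tBHP and replicate 3 of cNSF-HA+tBHP. For ELK4, GABPA, ETS1, ETV4 and ERF the response in fNSF-HA cells is also given without replicate 3 of fNSF-HA+tBHP, which moved it the other way.

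**Figure D1:**
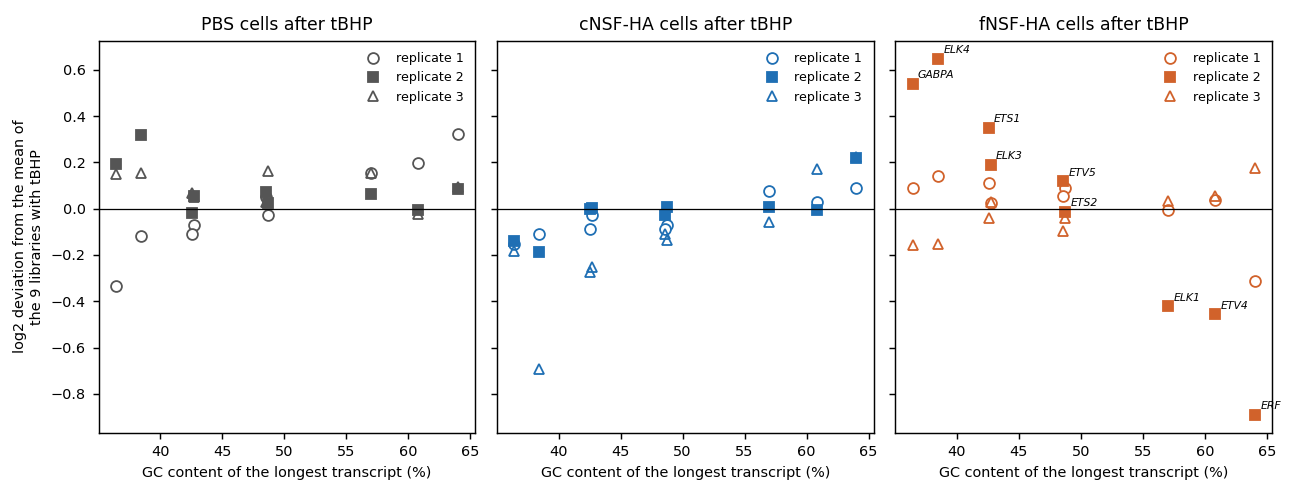
Deviation of each gene (log2, y axis) from its average over the 9 tBHP libraries, against the GC content of its longest transcript (%, x axis), by pre-incubation, with a marker shape for each replicate. In fNSF-HA replicate 2 (filled squares, named) the points fall from GABPA and ELK4 at low GC content to ERF at -0.89, and in cNSF-HA replicate 3 (triangles) ELK4 lies at -0.69.

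Levels were compared between genes as normalized counts per kilobase of exon. In PBS cells the order was ELK3 (924 ± 32.9 per kilobase, SD, n = 3), ETS1 (583 ± 11.0), ERF (486 ± 6.5), ELK1 (349 ± 11.8), ETS2 (273 ± 6.5), ETV4 (230 ± 13.1), ETV5 (197 ± 6.4), GABPA (117 ± 8.0) and ELK4 (106 ± 4.9). Only GABPA and ELK4, the last neighbours in this order, overlapped in range. ELK3 was therefore the ternary complex factor with the most transcript per length, and ELK4 the one with the least. After tBHP, ETV5 stood in the third place in PBS cells, at 547 ± 7.8 per kilobase, behind ELK3 (932 ± 44.7) and ERF (655 ± 62.7). ETS1 (454 ± 27.9) then overlapped ELK1 (419 ± 15.3), and GABPA (89.4 ± 17.0) again overlapped ELK4 (88.8 ± 13.3). In fNSF-HA+tBHP the order after ELK3 was ETV5, ETS1, ERF, ELK1 and ETS2, each of which overlapped its neighbour, then ETV4, GABPA and ELK4, of which the last 2 overlapped.

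**Figure D2:**
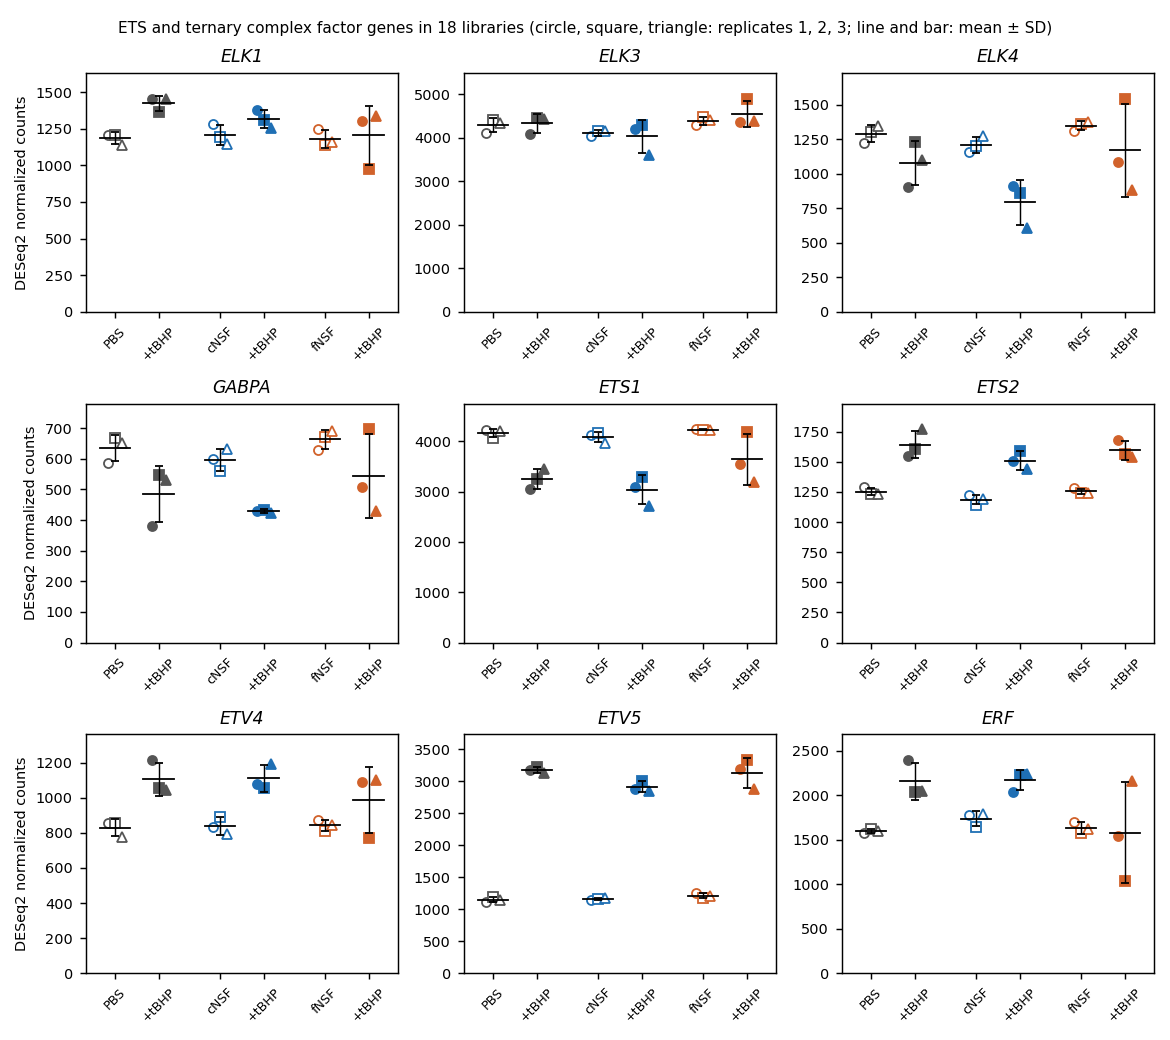
Normalized counts (y axis, from 0) of the 9 genes in the 18 libraries, without tBHP (open) and after tBHP (filled), in PBS (grey), cNSF-HA (blue) and fNSF-HA (orange) cells, where the horizontal line and bar give mean ± SD and circle, square and triangle are replicates 1, 2 and 3. ETV5 lies at 2838 or more in every library after tBHP and at 1247 or less in every library before it, and ERF spreads from 1035 to 2167 in fNSF-HA+tBHP.

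Most of these genes differed after tBHP in PBS cells, in both directions. ETV5 rose 2.77-fold, ETS2, ETV4, ERF and ELK1 rose by 1.20 to 1.34-fold, GABPA and ETS1 fell to 0.757 and 0.778 of their level, and ELK3 and ELK4 did not pass the test. So 5 of 9 genes rose and 2 fell, where 24.2% of all genes tested rose and 26.9% fell. Without replicate 1 of PBS+tBHP 3 rose (20.7% of all genes) and 1 fell (23.3%). In cNSF-HA cells 3 genes rose (24% of all genes) and 3 fell (26.8%), and 3 rose (21.2%) and 3 fell (24.1%) without replicate 3 of cNSF-HA+tBHP. In fNSF-HA cells 2 rose (19.2%) and 1 fell (22.7%), and without replicate 2 of fNSF-HA+tBHP 3 rose (24.4%) and 3 fell (26.2%), so that 6 of 9 were called there, where 50.6% of all genes were. Adjusted p-values are from limma's test on log2(normalized count + 1), adjusted by Benjamini-Hochberg over all 13686 genes, so fold changes are on that scale, and the median log2 change of all genes lay between -0.03 and 0.0043 in the 3 responses. This test shares 1 spread per gene over all 6 groups, though each of the 9 genes varied more between replicates after tBHP than without it. The groups before and after tBHP did not overlap in 63.8%, 63.7% and 48.7% of all genes tested in PBS, cNSF-HA and fNSF-HA cells. A lack of overlap, as given for single genes below, was therefore common. In bulk RNA, less transcript per cell and fewer cells that carry it cannot be told apart.

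**Figure D3:**
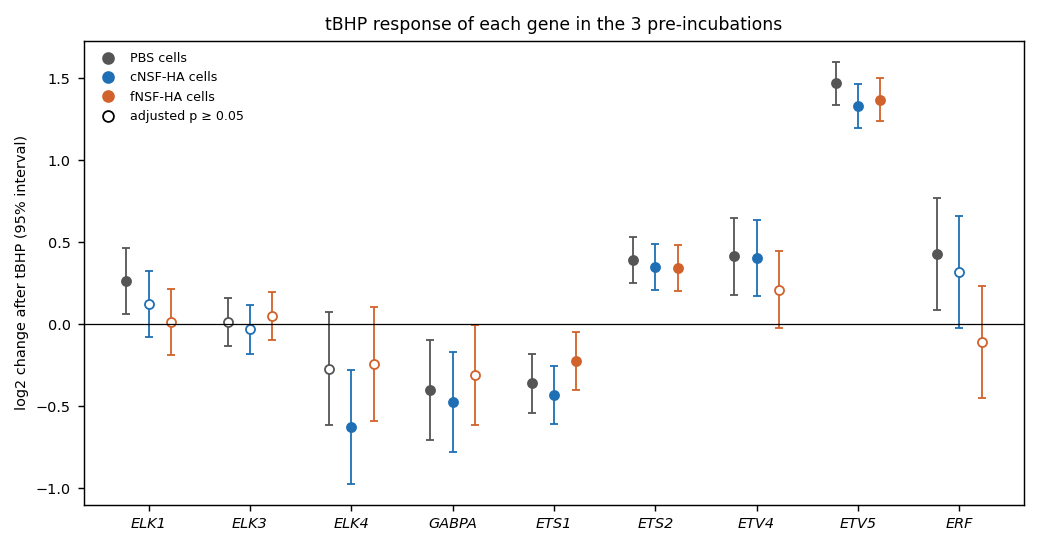
Log2 change after tBHP (y axis, with the 95% interval) of each gene in PBS (grey), cNSF-HA (blue) and fNSF-HA (orange) cells; open circles have an adjusted p of 0.05 or more. ETV5 stands at 1.33 to 1.47 in the 3 pre-incubations, ETS2 at 0.34 to 0.39 and ETS1 at -0.43 to -0.23, while the points of ERF and ELK4 lie farthest apart.

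Among the ternary complex factors, ELK1, the best known partner of SRF, had 1208, 1208 and 1139 normalized counts in the 3 PBS libraries and 1454, 1363 and 1453 in PBS+tBHP. The groups did not overlap, and ELK1 rose by 0.26 ± 0.096 on the log2 scale (SE, adjusted p = 0.0285). In cNSF-HA cells it had 1279, 1194 and 1143 without and 1379, 1311 and 1253 after tBHP, which overlapped (log2 change 0.12, adjusted p = 0.29). In fNSF-HA cells it had 1249, 1135 and 1159 without and 1302, 974 and 1336 after tBHP (log2 change 0.02, adjusted p = 0.915). The low value was that of replicate 2, without which the log2 change was 0.16 (adjusted p = 0.069). The call in PBS cells was lost in 5 of 6 fits without 1 library of these groups (adjusted p from 0.0511 to 0.095), all but that without PBS+tBHP replicate 2, and with no filter on low values (0.0516).

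ELK3, a ternary complex factor that can act as a repressor, passed the test in none of the pre-incubations. It had 4121, 4411 and 4352 normalized counts in PBS cells and 4093, 4464 and 4442 after tBHP. These ranges overlapped almost wholly, and the log2 change was 0.01 (95% interval -0.14 to 0.16, adjusted p = 0.898). In the HA pre-incubations the log2 changes of ELK3 were -0.03 (-0.18 to 0.12) and 0.05 (-0.10 to 0.20; -0.0058 without fNSF-HA+tBHP replicate 2), so changes within these intervals could not be detected at this spread. Without cNSF-HA+tBHP replicate 3 the change in cNSF-HA cells was 0.047. With the trend of each library with GC content and length removed, ELK3 passed in all 3 pre-incubations, as described below. ELK3 shares 209 exon bases with the antisense gene AC008149.1.

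ELK4 had 1227, 1302 and 1346 normalized counts in PBS cells and 908, 1228 and 1097 after tBHP. In cNSF-HA cells it went from 1159, 1201 and 1274 to 914, 864 and 609. In fNSF-HA cells it went from 1312, 1363 and 1375 to 1086, 1545 and 885. Only in cNSF-HA cells were the libraries after tBHP all below those before, and there ELK4 fell by 0.63 ± 0.16 on the log2 scale (adjusted p = 0.00415), or by 0.45 without cNSF-HA+tBHP replicate 3 (adjusted p = 0.0336). Its log2 changes of -0.27 in PBS cells and -0.24 in fNSF-HA cells did not pass (adjusted p = 0.18 and 0.256), and were -0.15 without PBS+tBHP replicate 1 and -0.059 without fNSF-HA+tBHP replicate 3. The difference between the cNSF-HA and fNSF-HA responses was -0.38 on the log2 scale (95% interval -0.87 to 0.11, adjusted p = 0.71). It was -0.17 without fNSF-HA+tBHP replicate 2 and -0.20 without cNSF-HA+tBHP replicate 3. Without replicate 2 of fNSF-HA+tBHP, ELK4 fell in fNSF-HA cells as well, by 0.46 (adjusted p = 0.00838). ELK4 shares 422 exon bases with MFSD4A on the opposite strand, a gene with a mean of 7.33 normalized counts, and 33 with the pseudogene AC096533.1, also on the opposite strand.

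GABPA had 585, 667 and 651 normalized counts in PBS cells and 379, 547 and 531 after tBHP. In cNSF-HA cells it had 598, 560.1 and 633 before, and 430.1, 434 and 422 after tBHP. The groups were apart in both pre-incubations, and GABPA fell by 0.40 ± 0.15 (adjusted p = 0.0275) and by 0.48 ± 0.15 (adjusted p = 0.011) on the log2 scale. In fNSF-HA cells 629, 671 and 689 were followed by 509, 696 and 429, where replicate 2 was as high as before tBHP (log2 change -0.31, adjusted p = 0.0946). Without that library GABPA fell by 0.50 (adjusted p = 0.00196), and without fNSF-HA+tBHP replicate 3 its log2 change was -0.16. In PBS cells the call was lost without PBS replicate 2 or 3 or without PBS+tBHP replicate 1 (adjusted p = 0.0867, 0.0753 and 0.185, log2 change -0.23 in the last), and by edgeR (0.0557). GABPA shares 413 exon bases with ATP5PF on the opposite strand; the libraries came from a kit that does not keep strand, so reads from these bases cannot be assigned to one of the genes.

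ETS1, a factor of mesenchymal and lymphoid cells, fell in all 3 pre-incubations. It had 4222, 4077 and 4203 normalized counts in PBS cells and 3047, 3247 and 3445 after tBHP. In cNSF-HA cells it had 4129, 4159.9 and 3972, and then 3098, 3289 and 2723. In both, every library after tBHP was below every library before it, by 0.36 ± 0.085 (adjusted p = 0.00183) and 0.43 ± 0.085 (adjusted p = 0.000419) on the log2 scale. In fNSF-HA cells 4238, 4234 and 4233 were followed by 3548, 4190.1 and 3198, and the fall of 0.23 passed narrowly (adjusted p = 0.0415). That call was lost in 5 of 6 fits without 1 library (adjusted p from 0.0901 to 0.2), by edgeR (0.131) and with no filter (0.089), and without replicate 2 of fNSF-HA+tBHP the fall was 0.33 (adjusted p = 0.000969). Without replicate 3 of fNSF-HA+tBHP the log2 change was -0.14.

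Its paralog ETS2 rose where ETS1 fell. ETS2 had 1287, 1236 and 1235 normalized counts in PBS cells and 1551, 1609 and 1768 after tBHP. In cNSF-HA cells 1225, 1145 and 1190.0 were followed by 1505, 1588 and 1437, and in fNSF-HA cells 1280.0, 1242 and 1245 by 1681, 1566 and 1536. No group after tBHP overlapped its control, and the rises were 0.39, 0.35 and 0.34 on the log2 scale (SE 0.067 each, adjusted p = 0.000108, 0.000333 and 0.000456). Each of these calls held without any 1 library of the groups compared, from 0.305 to 0.429 on the log2 scale.

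ETV5 showed the strongest response of the group. It had 1108.5, 1183 and 1146 normalized counts in PBS cells and 3171, 3216 and 3126 after tBHP. In cNSF-HA cells 1145, 1153 and 1167 became 2883, 3004 and 2838, and in fNSF-HA cells 1247, 1167 and 1212 became 3185, 3327 and 2869. The lowest library after tBHP, at 2838, was thus far above the highest one without it, at 1247, and the spread within groups was small beside this (SD 0.014 to 0.11 on the log2 scale). The log2 rises were 1.47 in PBS, 1.33 in cNSF-HA and 1.37 in fNSF-HA cells (SE 0.063 each, adjusted p = 4.78e-12, 1.67e-11 and 1.03e-11), or 2.77-, 2.52- and 2.58-fold. Without fNSF-HA+tBHP replicate 2 the last was 1.32 on the log2 scale. The cNSF-HA and fNSF-HA responses differed by -0.04 (95% interval -0.22 to 0.15, adjusted p = 0.884). ETV5 shares 164 exon bases with DGKG on the same strand, a gene with a mean of 21.5 normalized counts.

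ETV4, of the same PEA3 group, moved less. It had 856, 858 and 775 normalized counts in PBS cells and 1215, 1057 and 1045 after tBHP. In cNSF-HA cells 833, 893 and 792 were followed by 1080.4, 1055 and 1195. These groups did not overlap, and ETV4 rose by 0.41 ± 0.11 (adjusted p = 0.00489) and 0.40 ± 0.11 (adjusted p = 0.00589) on the log2 scale. In fNSF-HA cells it had 875, 813 and 844, and then 1090.0, 773 and 1101 (log2 change 0.21, adjusted p = 0.143), where replicate 2 fell below the controls. Without that library it rose by 0.38 (adjusted p = 0.000949), and without fNSF-HA+tBHP replicate 3 the log2 change was 0.12. ETV4 shares 68 exon bases with DHX8 on the opposite strand, which had a mean of 1975 normalized counts.

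ERF, the repressor of the group, had 1578, 1619.9 and 1605 normalized counts in PBS cells and 2398, 2035 and 2046 after tBHP. All 3 libraries after tBHP were higher, and ERF rose by 0.43 ± 0.16 on the log2 scale (adjusted p = 0.0352). This call was lost in 5 of 6 fits without 1 library (adjusted p from 0.0516 to 0.131), all but that without PBS+tBHP replicate 2, and with no filter (0.0612). In cNSF-HA cells 1783, 1640.1 and 1793 were followed by 2039, 2231 and 2240.3, which also did not overlap (log2 change 0.32, adjusted p = 0.109). In fNSF-HA cells 1702, 1573 and 1627 were followed by 1546, 1035 and 2167, the widest spread of any gene and group here (SD 0.53 on the log2 scale; log2 change -0.11, adjusted p = 0.623). Without replicate 2 the log2 change was 0.16 (adjusted p = 0.195), and without replicate 3 ERF fell by 0.37 (adjusted p = 0.0172). ERF shares 155 exon bases with AC006486.1, a protein-coding gene on the same strand, so reads from these bases cannot be assigned to one gene.

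The order of the responses followed GC content in part. The genes of 57.0% GC or more, ELK1, ETV4 and ERF, had the positive log2 changes 0.26, 0.41 and 0.43 in PBS cells, and the genes of 42.6% or less, GABPA, ELK4 and ETS1, the negative ones -0.40, -0.27 and -0.36. ELK3, at 42.7%, was next to ETS1 in GC content and had a log2 change of 0.01, and ETV5 and ETS2, at 48.6% and 48.7%, rose. When the trend of each library with GC content and length was removed, which also takes out any response that goes with GC content, ETV5 (1.41), ETS2 (0.34) and ETS1 (-0.15) kept direction and call in PBS cells (adjusted p = 0.0049 for ETS1). ELK3 then rose by 0.24 in PBS cells (adjusted p = 0.000261), by 0.17 after cNSF-HA (0.00429) and by 0.16 after fNSF-HA (0.00936). In PBS cells GABPA turned to 0.12 and ELK4 to 0.16, and ERF (0.09), ETV4 (0.13) and ELK1 (0.04) no longer passed. This left 4 of 9 genes called, where 57% of all genes tested passed in that fit. In cNSF-HA cells ELK4 (-0.14), ETV4 (0.08) and GABPA (adjusted p = 0.979) no longer passed either; 4 of 9 genes were called there (55.6% of all genes) and in fNSF-HA cells 6 of 9 (55.4%). In fNSF-HA cells the genes that passed here but not with the trend left in were ELK3, ETV4, which rose by 0.15 (adjusted p = 0.0481), and ERF, which fell by 0.14 (adjusted p = 0.0322). With the trend left in, the log2 change of ERF in fNSF-HA cells was -0.11. The difference of responses between fNSF-HA and PBS cells called 0 genes with the trend removed.

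Without tBHP, the comparison of cNSF-HA with fNSF-HA called no gene of the group (0% of all genes tested by limma; 0 of the 9 with an unadjusted p under 0.05, as 1.51% of all genes had; 0 by edgeR and 0 by DESeq2). The log2 differences, cNSF-HA minus fNSF-HA, lay between -0.16 for ELK4 and 0.09 for ERF. In ELK3, ELK4, ETS1 and ETS2 every cNSF-HA library was below every fNSF-HA library, 4 of 9 genes, where 17.1% of all genes tested showed this pattern. In a fit of only these 2 groups, without the tBHP libraries, ELK4 (-0.16, adjusted p = 0.0193) and ELK3 (-0.09, adjusted p = 0.0482) passed, 2 of 9 genes against 7.16% of all genes. There 2836 of all genes tested had an unadjusted p under 0.05, against 206 in the main fit. The spread that the main fit shares over all groups includes the wider one after tBHP. For the 9 genes it exceeds the spread without tBHP, so the lack of calls in the main fit does not show that the groups are alike. Against PBS cells, no gene was called for cNSF-HA (0%) or fNSF-HA (0%) by limma, and 0 of 9 had an unadjusted p under 0.05 (0.921% and 0.796% of all genes). edgeR called no gene in either comparison, and DESeq2 called none for cNSF-HA and 3 of all genes (0.0219%) for fNSF-HA, 0 of them among the 9.

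After tBHP the differences between cNSF-HA and fNSF-HA cells were larger in size for each gene but ETS2, yet none passed in limma's test (0% of all genes tested; 0 of 9 by edgeR, 0% of all genes). ELK4 was lower in cNSF-HA+tBHP by a log2 difference of -0.54 (95% interval -0.89 to -0.20), ERF higher by 0.52 (0.18 to 0.86), and ETS1 lower by -0.26 (-0.44 to -0.08), each with an adjusted p of 0.0981. GABPA differed by -0.32 and ELK3 by -0.17, and these 5 genes had an unadjusted p under 0.05, as did 4412 of all genes tested (32.2%). Limma's fit shares 1 spread per gene over both tBHP states. For ERF and ELK4 the SD was 0.32 after tBHP, against 0.054 and 0.059 without it. The intervals of these 5 genes are therefore narrower than their spread after tBHP alone would give. In a fit of only these 2 groups, 1001 of all genes tested had an unadjusted p under 0.05. ELK1 (0.14), ETV4 (0.18), ETV5 (-0.10) and ETS2 (-0.08) had intervals that include 0. The signs again went with GC content: the 3 genes of high GC content were higher in cNSF-HA+tBHP and the other 6 lower, though without fNSF-HA+tBHP replicate 2 ELK1 was at -0.0062 and ETV4 at 0.017. DESeq2 on the recovered reads called ELK4 (-0.56, adjusted p = 0.038) and ETS1 (-0.26, adjusted p = 0.0495), 2 of 9 genes against 5.79% of all genes.

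**Figure D4:**
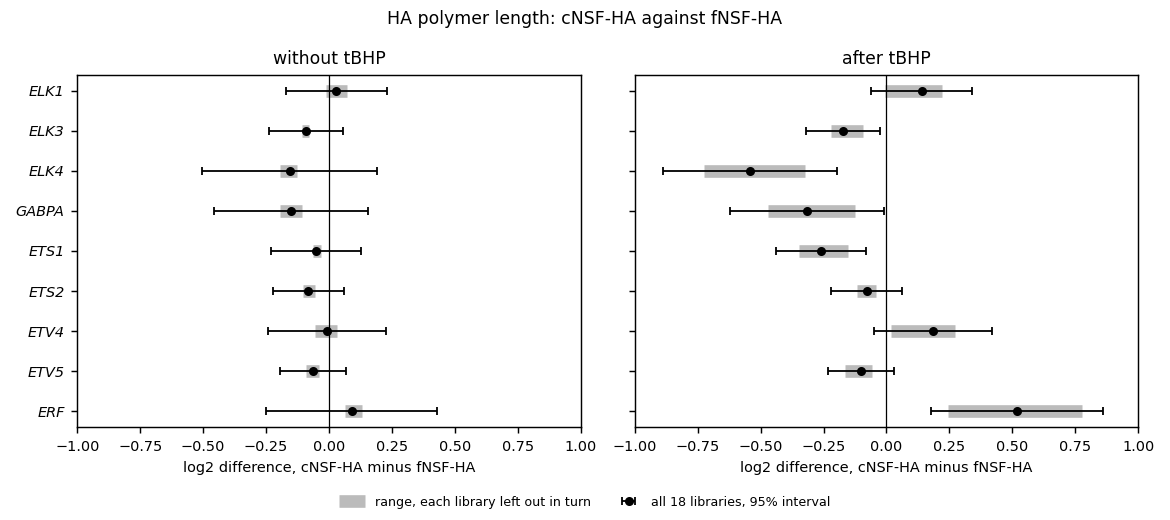
Log2 difference of each gene by HA polymer length (x axis, cNSF-HA minus fNSF-HA), before tBHP on the left and after it on the right. Points and bars give the value and 95% interval with all 18 libraries, and grey boxes the range when each library of the 2 groups is left out in turn; after tBHP the boxes reach from -0.72 to -0.32 for ELK4 and from 0.24 to 0.78 for ERF.

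The size of these differences, and which of them passed, depended on single libraries. Their sign was the same in every fit without 1 library for all of the genes but ELK1. Without fNSF-HA+tBHP replicate 2 the differences were -0.32 for ELK4, 0.24 for ERF, -0.15 for ETS1, -0.12 for GABPA, -0.12 for ELK3, -0.056 for ETV5 and -0.091 for ETS2, with adjusted p-values of 0.572 or more. Without fNSF-HA+tBHP replicate 3, 6 of the 9 genes passed (ELK4, ERF, ETS1, GABPA, ELK3 and ETV5), where 40.8% of all genes tested did. Without cNSF-HA+tBHP replicate 3 the difference of ELK4 was -0.36. With the GC and length trend removed they were -0.25 for ELK4 and 0.07 for ERF (adjusted p = 0.139 and 0.543), and no gene of the group passed in that fit (0.008% of all genes). In ELK3 alone was every cNSF-HA+tBHP library (4212, 4302 and 3607) below every fNSF-HA+tBHP library (4365, 4901 and 4380.3), a pattern of 8.29% of all genes tested. GC content moves with these differences as described above, and its part in them was not tested further.

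Against PBS+tBHP, no gene of the group was called for cNSF-HA+tBHP (0% of all genes) or for fNSF-HA+tBHP (0.139%). An unadjusted p under 0.05 was found for 1 of 9 with cNSF-HA, ELK4 at -0.45 (8.64% of all genes), and for 2 of 9 with fNSF-HA, ERF at -0.51 and ELK1 at -0.25 (22.7%). edgeR and DESeq2 called 0 of 9 in both, where edgeR called 0% and 0.263% of all genes and DESeq2 0.0658% and 3.3%. These 2 comparisons share the PBS+tBHP libraries. Without cNSF-HA+tBHP replicate 3 the difference of ELK4 for cNSF-HA+tBHP was -0.27. Without fNSF-HA+tBHP replicate 2 the differences of ERF and ELK1 were -0.23 and -0.11. With the GC and length trend removed they were -0.15 and -0.11, that of ELK4 for cNSF-HA+tBHP was -0.33, and 0 of 9 passed for cNSF-HA+tBHP (0.04% of all genes) and fNSF-HA+tBHP (0.336%). Without fNSF-HA+tBHP replicate 3, 3 of the 9 passed for fNSF-HA+tBHP, where 29.4% of all genes did. The tBHP responses of the pre-incubations did not differ by limma's interaction test in any gene of the group (0% of all genes in each of the 3 tests), nor by edgeR or DESeq2, which called 0.0438% of all genes between fNSF-HA and PBS. An unadjusted p under 0.05 was found for 0 genes between cNSF-HA and fNSF-HA (3.89% of all genes), 0 between cNSF-HA and PBS (4.06%) and 1 between fNSF-HA and PBS (6.88%).

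The other genes around these factors were described by lists written from common knowledge, here by their response in PBS cells. Of 19 other ETS family genes, 8 were tested, and 4 rose and 0 fell (median log2 change 0.24). ELF1 rose by 0.79 and ETV1, the remaining gene of the PEA3 group, by 0.66. Of 11 genes for SRF, its cofactors and partners of ETS factors, 3 rose and 3 fell (median -0.02). CIC, the repressor that holds down ETV4 and ETV5, rose by 0.78 and MKL1, a cofactor of SRF, by 0.42. MYOCD, also an SRF cofactor, fell by 0.75, PIAS2, a SUMO ligase, by 0.35 and SRF itself by 0.35 (adjusted p = 0.00451).

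The serum response element targets, genes that answer to SRF, rose. Of 15 serum response element target genes, 14 were tested, and all 14 rose and 0 fell (median log2 change 0.96), among them the antiproliferative gene BTG2 (3.09) and ZFP36 (1.36), which destabilizes messenger RNAs, the largest rises at a mean of at least 100 normalized counts. The AP-1 subunits FOSB (2.01) and FOS (1.71), with means of 76.7 and 58.6, lay between these. In cNSF-HA cells 14 rose and in fNSF-HA cells 10, where 19.2% of all genes rose, and without fNSF-HA+tBHP replicate 2 all 14 rose there as well. Without PBS+tBHP replicate 1, 11 of the 14 rose in PBS cells. Of 20 genes of the ERK pathway and its feedback, 19 were tested, and 8 rose and 4 fell (median 0.23). The feedback inhibitors SPRY4 (1.16) and DUSP5 (1.05) rose most, and RPS6KA3 (-0.54), a kinase downstream of ERK, fell.

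Of 12 GABP target genes, 2 rose and 6 fell (median -0.16). SDHD, a subunit of respiratory complex II, fell by 1.15 and TFAM, which packages and transcribes mitochondrial DNA, by 1.03, while the cytochrome oxidase subunits COX6B1 (0.52) and COX4I1 (0.43) rose. Of 12 ETS1 and ETS2 target genes, 11 were tested, and 6 rose and 2 fell (median 0.25). The matrix proteases MMP14 (0.71) and MMP1 (0.69) rose, and the matrix protein SPARC fell by 0.28. ICAM1, at a mean of 76.1 normalized counts, fell by 0.82. For all genes tested the shares that rose and fell are the 24.2% and 26.9% given above, and no test of a list was run. The comparisons of cNSF-HA with fNSF-HA called 0 genes of any of these lists by limma, both before and after tBHP.

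**Figure D5:**
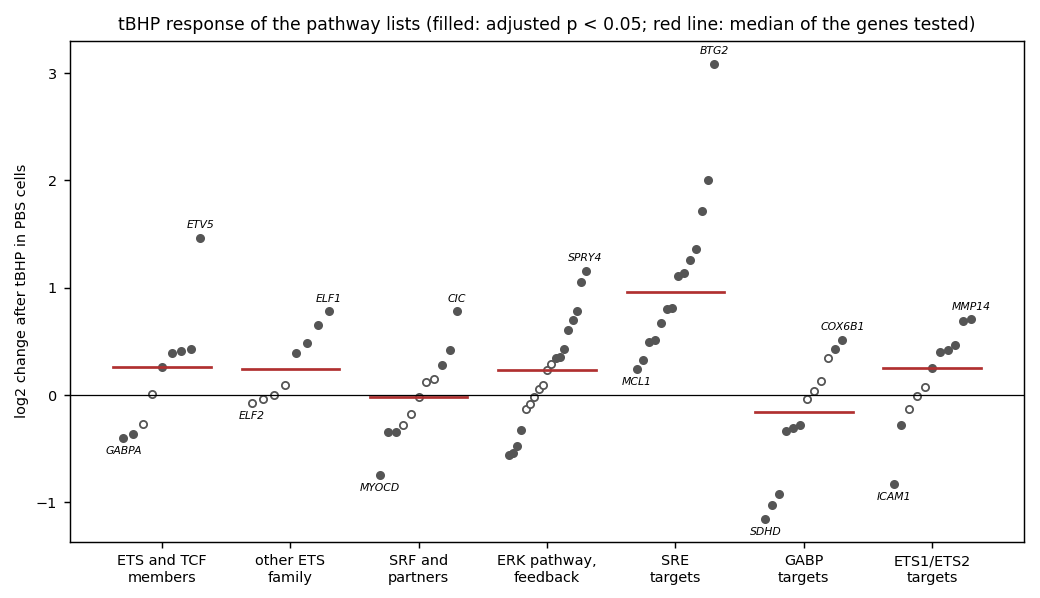
Log2 change after tBHP in PBS cells (y axis) of the genes tested in each list, ordered by value within a list (x axis), with filled circles for an adjusted p under 0.05, red lines at the list medians and names at most ends of the lists. The serum response element targets all lie above 0 with a median of 0.96, and the GABP targets split, from SDHD at -1.15 to COX6B1 at 0.52.

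The genes whose log2 values were most like those of ETV5, the gene of the group with the largest responses, were MTHFD2, an enzyme of mitochondrial folate metabolism, SH2B3, a signaling adaptor, TNFRSF10B, a death receptor, VLDLR, a lipoprotein receptor, and PSAT1, an enzyme of serine synthesis. Pearson's r over the 18 libraries was 0.998 for MTHFD2, 0.997 for SH2B3 and 0.996 for the other three. The libraries fall into those without and those after tBHP, so that any gene with a large and even response comes near 1, and 560 of the genes tested had r of at least 0.95. Their log2 changes in PBS cells lay between 1.28 and 2.17, against 1.47 for ETV5.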

How the data were processed

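RNA-seq of IMR90 cells covered 6 groups of 3 libraries, grouped by their labels. The authors used the unstranded TruSeq RNA V2 kit with single-end sequencing (100 nt) and, per the submitters' processing notes, used Trimmomatic 0.32, STAR 2.5.2b, featureCounts, Subread 1.5.0-p3, DESeq2 and GRCh38.p7, with no role or order given. The annotation and the strand setting of the counting are not given in the sources used here. The deposited signal is a gene's read count over the size factor that DESeq2 gave to the library, and the reads could be recovered, as 100% of values were whole multiples of 1 read within 0.01. The table also holds the authors' p-value and q-value and a rank per gene for a comparison that is not named, and these were not used.

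On log2(value + 1), with 1 as the pseudocount, limma 3.58.1 in R 4.3.3 tested 13686 genes whose mean reached 10 (mean-variance trend, 1 coefficient per group, all 18 libraries, two-sided, Benjamini-Hochberg, threshold 0.05); the fit was also tested on simulated data. Alternatives were edgeR 4.0.16 (quasi-likelihood) and DESeq2 1.42.0 on the recovered reads, pseudocounts of 0.1 and 5, no filter, a higher filter (mean of 50), rescaling by the median log2 ratio, a replicate block, only the groups compared, removal of each library's trend with transcript length and GC content (5 spline degrees of freedom, 12503 genes, GENCODE release 29), and each library left out in turn. Levels per kilobase used the merged exon length. Libraries held 20261103 to 26287660 reads; counts of replicates differed by 1.48 to 2.69 times their sampling noise (chi-square per degree of freedom) before tBHP and by 2.86 to 71.2 times after it, so counting error matters mainly before tBHP.

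Named genes were all 9 members, in each other list up to 2 genes with the largest rise and up to 2 with the largest fall past the threshold in PBS cells at a mean of at least 100, SRF, the 5 genes most correlated with the member of largest response, and SPI1, ERG and FLI1. 1 gene that this rule names is not reported here. ICAM1, FOS, FOSB, COL1A1, VIM, KRT18, TEK, VWF, PECAM1, CDH5, ACTA2, DES, MYH11 and the genes that overlap a member were named outside this rule, after their values were seen. Members and lists were chosen with earlier results of these data known.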

Additional observations from a re-analysis of the deposited data

Results flagged for a closer look

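In 3 genes without tBHP and in 1 after tBHP, all 3 cNSF-HA libraries lay below the mean of the PBS libraries of the same state and all 3 fNSF-HA libraries above it, as did 6.89% and 1.64% of all genes tested. Without tBHP these were ELK3 (log2 difference of cNSF-HA minus fNSF-HA -0.092), ELK4 (-0.16) and ETS1 (-0.052), and after tBHP it was ELK3 (-0.17). The opposite directions were not tested as such; in limma's test of cNSF-HA against fNSF-HA the adjusted p-values were 1.0 without tBHP and 0.112 after it.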

How the results depend on the processing

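The study names no pairing of samples by replicate number, and the main fit assumed none. Of 45 pairs of same-numbered libraries, 7 had a correlation of deviations over 0.1 (from -0.12 to 0.33). Pairs of different numbers were not compared, so this does not settle whether samples were paired. With a replicate block the counts of called genes stayed at 7, 6 and 3 of 9 in the PBS, cNSF-HA and fNSF-HA responses (52.8%, 52.4% and 43.4% of all genes). They stayed at 0 in the HA comparisons. Over all genes the block raised the calls, in PBS cells from 6995 to 7228. With the GC and length trend removed, 4 of 9 were called in PBS cells (also with the replicate block), 4 in cNSF-HA cells (3 rose and 1 fell, against 3 and 3) and 6 in fNSF-HA cells (5 with the block). Between cNSF-HA and fNSF-HA cells, 2 were called without tBHP in the fit of only these groups and 2 after tBHP by DESeq2. Leaving out 1 library gave 4 to 7 called genes in PBS cells, 4 without PBS replicate 2 or 3 or PBS+tBHP replicate 1 (43.9%, 43.7% and 44% of all genes). It gave 2 to 6 in fNSF-HA cells, 6 without fNSF-HA+tBHP replicate 2 (50.6% of all genes), where 2 went with 34.9% to 35.3%. Without fNSF-HA+tBHP replicate 3 it gave 6 for cNSF-HA against fNSF-HA after tBHP and 3 for fNSF-HA against PBS, and 0 in these without any other library. Other counts stayed within 1.5 times, and the causes were not tested beyond the smaller number of samples or genes in a fit.

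In the responses and between the HA groups, removing the GC trend, with or without the block, turned the sign of ELK4 (0.16) and GABPA (0.12) in PBS cells, ELK1 (-0.14), ELK3 (0.17) and ERF (-0.061) in cNSF-HA cells, ELK1 (-0.078) and ELK4 (0.037) in fNSF-HA cells, ELK1 (-0.0027), ETS1 (0.0059) and ERF (-0.014) between the HA groups without tBHP, and ELK1 (-0.067) and ETV4 (-0.15) after tBHP. Against PBS+tBHP it turned GABPA (-0.099), ELK4 (-0.089), ELK3 (-0.069) and ETV4 (0.073) for fNSF-HA+tBHP and ERF (-0.089) and ETV4 (-0.075) for cNSF-HA+tBHP; against PBS without tBHP the turned values lay between -0.024 and 0.0055. edgeR turned ELK3 in cNSF-HA cells (0.031), ERF in fNSF-HA cells (0.018) and ETV4 without tBHP (0.019). Leaving out 1 library turned ELK3 in PBS cells (from -0.017 to 0.053 over the fits), cNSF-HA (-0.080 to 0.047) and fNSF-HA cells (-0.0058 to 0.078), ELK1 (-0.067 to 0.16) and ERF (-0.37 to 0.16) in fNSF-HA cells, ELK1 (-0.014 to 0.070) and ETV4 (-0.055 to 0.032) between the HA groups without tBHP, and ELK1 after tBHP (-0.0062 to 0.22). Against PBS+tBHP it turned ELK4 (-0.13 to 0.28), GABPA (-0.036 to 0.31), ETV5 (-0.069 to 0.038) and ETS2 (-0.082 to 0.012) for fNSF-HA+tBHP and ERF (-0.031 to 0.087) and ETV4 (-0.047 to 0.077) for cNSF-HA+tBHP. Against PBS without tBHP no value without 1 library was farther from 0 than 0.16.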
